A study of Mus musculus with 10 samples.

Results

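Activated CTLs of the mouse line 2/20 were set against the same line at rest, with every activated group weighted equally. Genes were taken as members when their levels in the 8 activated libraries all lay above both resting libraries (the shared response) or all lay below both (the resting program). Of 14729 genes with enough counts to be tested, 2355 belonged to the shared response and 2843 to the resting program, 5198 in all, and the other 9531 overlapped between activated and resting libraries.

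The 2/20 line is a cytotoxic T lymphocyte (CTL) line that recognises AH1, a peptide presented by tumours of BALB/c mice. The 4 activated groups were AH1 peptide at 1 µg/mL for 4 h, AH1 peptide for 24 h, co-culture with 4T1 mammary carcinoma cells for 4 h, and co-culture with 4T1 cells for 24 h; the fifth group was the untreated resting line. All groups were labelled wild type, were kept in weekly culture with irradiated spleen cells of BALB/c mice, IL-2 at 10 units/mL and the AH1 peptide at 1 µg/mL, and were isolated with magnetic beads against CD45, a surface protein of blood cells, before stranded poly(A) RNA sequencing. Each group had 2 libraries, the time since the last weekly stimulation of the resting cells and the presence of spleen cells during peptide activation are not stated in the labels, and a library of 4T1 cells alone was not analysed here. The labels do not say whether the libraries of a group came from separate cultures, so the p-values measure only the spread between these libraries, which may be technical.

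Between stimulations a T cell is held in a small, slow state by factors of the FOXO, KLF and TOB/BTG families, depends on IL-7 for survival, and recycles its own components by autophagy. Engagement of the T cell receptor raises Myc and mTORC1 activity, and the cell then enlarges: it takes up amino acids, builds ribosomes, expands its mitochondria and makes nucleotides before it divides. Much of this response is transcriptional, so the messages that leave and those that enter the pool can both be read from counts.

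Levels are CPM, the deposited counts of a gene scaled to the TMM-adjusted total of its library, and each gene is given by the lowest, median and highest of the 8 activated libraries and then by both resting libraries. Library totals were 14104658 to 22910633 counts. Log2 fold changes are activated over rest with their standard error, and adjusted p-values come from the quasi-likelihood test of edgeR with Benjamini-Hochberg adjustment over the 14729 genes, with 0.05 as the threshold for a gene that rose or fell. In bulk libraries fewer cells of a type and less RNA per cell cannot be told apart.

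The label of a T cell was met in the resting libraries: Cd3e, a chain of the T cell receptor complex, was at 465 and 415 CPM and Cd8a, the co-receptor of cytotoxic T cells, at 148 and 143 CPM, while Cd6 and Trat1 were at 0. The summed level of the 20 T cell identity genes was 15069 to 15524 CPM in peptide 4 h, 4461 to 4813 in peptide 24 h, 3215 to 3357 in co-culture 4 h, 1348 to 1435 in co-culture 24 h and 9117 to 9485 at rest. Epithelial genes, which mark 4T1 cells, summed to 5229 to 5377 CPM in co-culture 4 h and 4640 to 4702 in co-culture 24 h, but to 31.0 to 41.2 CPM in the peptide libraries and 54.5 to 60.3 at rest. B cell genes summed to 297 to 663 CPM in the peptide libraries, 42.8 to 60.4 in co-culture and 293 to 319 at rest, where 6 of the 15, Ms4a1 among them, were at 0. None of the 15 was at 0 in a peptide group, and 14 of them lay above both resting libraries in all 4 peptide libraries. Myeloid genes summed to 220 to 278 CPM in peptide 4 h, 48.2 to 72.8 in peptide 24 h, 41.0 to 52.0 in co-culture and 86.7 to 98.5 at rest. The part of B cell and myeloid RNA in the peptide levels was not tested. In none of the 7 marker lists did all 8 activated libraries exceed both resting libraries. The summed CD4 T cell list was lower in all 8 because of Ctla4, a member of the resting program.

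In the fit over all genes 4573 rose (31.0%) and 4566 fell (31.0%), and the shared response and the resting program held 16.0% and 19.3% of the genes tested. In 1271 genes both libraries of at least 1 activated group had no count, and the test of the mean over groups called none of these risen and 269 fallen. Such a group leaves that mean, on the log scale, without a lower bound, so these calls were pushed towards a fall. A library without a count cannot lie above rest, so the rule kept all 1271 out of the shared response. The resting program held 164 of them, all of which fell. Scaling the libraries instead on the 19 tested T cell identity genes raised the median log2 fold change of all genes to 0.84, against 0.06 with TMM. Under that scaling 7215 genes rose (49.0%) and 1875 fell (12.7%), so that 79.4% of the calls were increases, against 50% with TMM. The shared response then counted 2194 genes (14.9%) and the resting program 492 (3.34%). Both scalings held 1629 genes in the shared response (11.1%) and 463 in the resting program (3.14%). The resting program thus shrank far more under this scaling than the shared response did, and each decrease given here is relative to the bulk of the transcriptome. The medians of 9 gene lists changed sign with the scaling, and are given under both. Relative to the median of all genes, 38 of the 39 lists kept their sign. The shared response took 22.1 to 28.7% of the counts of tested genes in activated libraries, against 10.7 to 10.8% at rest. The resting program took 10.8 to 15.0% in activated libraries, against 35.6 to 35.7% at rest. The direction of both differences follows from the rule that chose the members, so these shares are only a description.

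The resting program was led by Fosb, a subunit of the AP-1 transcription factor, encoded at chr7:19302721-19310045 on the minus strand of mm10. Genes were ranked by the activated group in which they had moved least, with a resting mean of at least 5 CPM, so that the ranked genes and their fold changes are a description without a test. Fosb was at 0.874, 5.64 and 11.9 CPM in activated libraries against 476 and 418 CPM at rest, a log2 fold change of -6.45 ± 0.19. Ctla4, the inhibitory receptor that competes with CD28 for its ligands (chr1:60887000-60915832, plus strand), was at 6.28, 23.2 and 45.0 CPM in activated libraries against 894 and 919 CPM at rest (-5.47 ± 0.12). Every activated library of both genes thus lay far below the resting pair. Kdm4d, a histone H3 lysine demethylase, was at 0.746, 1.85 and 4.85 CPM against 54.6 and 58.7 at rest. Gprin3, of the GPRIN family of neurite outgrowth factors that G proteins regulate, was at 0.221, 2.65 and 5.61 CPM against 67.0 and 68.0 at rest. Spo11, the topoisomerase-like protein that makes meiotic DNA breaks, was at 0.292, 0.939 and 2.01 CPM against 28.1 and 27.6 at rest. The other 7 ranked genes, Chga, Ankrd35, Cabyr, Dkkl1, Dscam, Hist3h2ba and Alox8, were all at 15.8 CPM or below at rest and at 1.27 CPM or below in every activated library. Chga, Cabyr, Dkkl1 and Dscam are known from endocrine cells, sperm, testis and neurons. All 12 remained separated under T cell identity scaling.

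**Figure D1:**
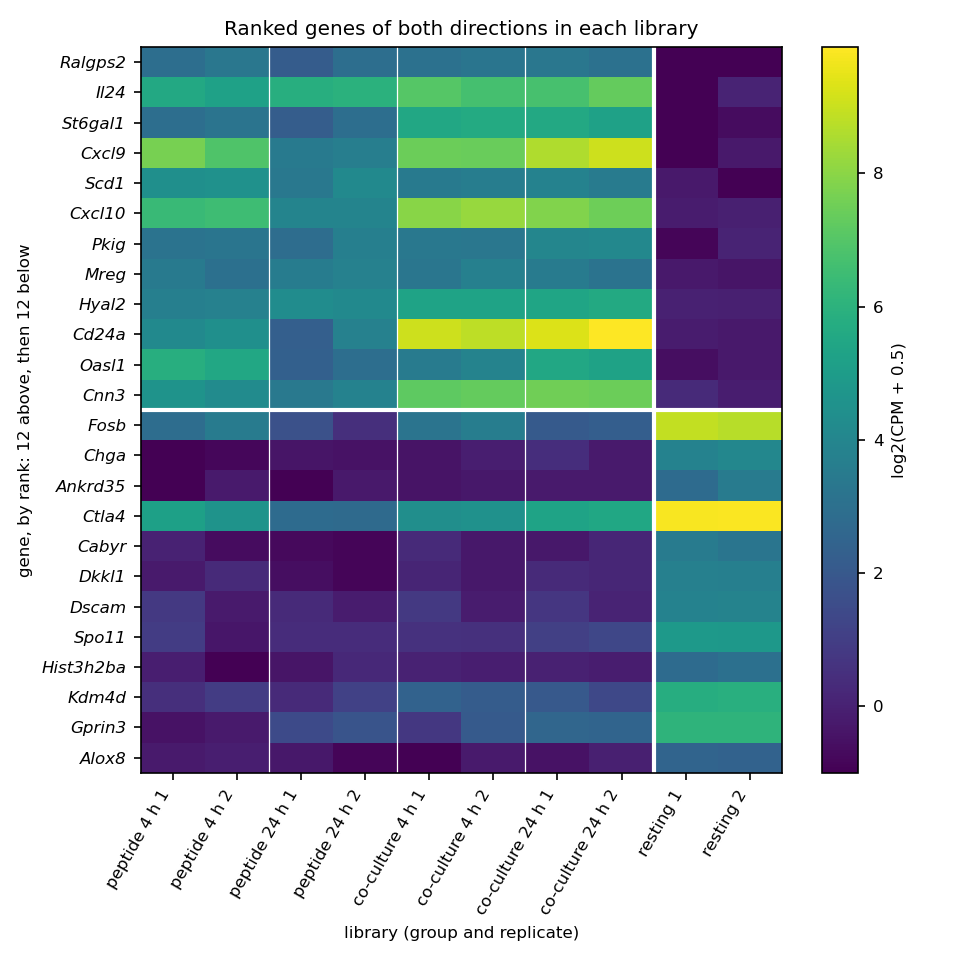
Levels of the 24 ranked genes (rows) in each of the 10 libraries (columns, activated groups left of rest), as log2(CPM + 0.5) on the colour scale. The upper 12 genes are above rest in all 8 activated libraries and the lower 12 are below it.

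Many genes that hold T cells quiescent belonged to the resting program. Of 30 quiescence regulators tested, 14 lay below rest in every activated library, 2 lay above, and 14 overlapped; 21 fell and 3 rose, with a median log2 fold change of -1.38 against 0.06 over all genes. Under T cell identity scaling 18 of the 30 fell, 9 rose and only 5 remained in the resting program. The median was then -0.62, against 0.84 over all genes. Txnip, an arrestin-family protein that restrains glucose uptake (chr3:96557957-96561883, plus strand), was at 90.7, 159 and 202 CPM in activated libraries against 1426 and 1480 at rest, and fell with a log2 fold change of -3.31 ± 0.09 (adjusted p = 7.27e-11). Its 8 activated libraries spanned little more than a 2-fold range. Pik3ip1, a membrane inhibitor of PI3 kinase, was at 2.98, 9.04 and 22.2 CPM against 70.1 and 72.8 at rest (-3.13 ± 0.13, adjusted p = 5.62e-10). Tsc22d3, the glucocorticoid-induced leucine zipper protein, was at 10.9, 14.6 and 23.5 CPM against 113 and 119 at rest (-2.93 ± 0.10, adjusted p = 2.29e-10). Dusp1, a phosphatase of MAP kinases, was at 8.02, 17.3 and 37.5 CPM against 125 and 128 at rest (-2.89 ± 0.10, adjusted p = 1.65e-10). Activated and resting libraries did not overlap for any of these 4.

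The anti-proliferative gene Btg2 was at 47.0, 94.3 and 110 CPM in activated libraries against 319 and 328 at rest (-1.99 ± 0.11, adjusted p = 6.78e-09). Its relative Btg1 fell on average but overlapped, with 198, 583 and 2684 CPM against 1632 and 1618 at rest, since peptide 4 h lay above rest and the other 3 groups below. Foxo1, the transcription factor that keeps homing and survival genes on, was at 20.8, 33.2 and 52.9 CPM against 99.4 and 89.8 at rest (-1.46 ± 0.13, adjusted p = 4.56e-07). The homing genes themselves did not follow as a group. Klf2, a factor of quiescence and egress, was at 3.496, 6.99 and 43.9 CPM against 20.9 and 20.0 at rest. Ccr7, the chemokine receptor for entry into lymph nodes, was at 0.103, 28.9 and 167 CPM in activated libraries against 2.91 and 4.601 at rest. S1pr1, the receptor for egress from lymph nodes, was at 0.158, 2.18 and 10.4 CPM against 0.728 and 1.51 at rest, with no difference past the threshold (0.29 ± 0.53, adjusted p = 0.679). All 3 overlapped between activated and resting libraries. A floor of 3 counts over both resting libraries corresponds to 0.0926 CPM.

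Klf3 and Schip1 were the 2 quiescence regulators that lay above rest. Klf3, a transcriptional repressor of the KLF family, was at 1.55, 13.96 and 30.8 CPM in activated libraries against 0.056 and 0.206 at rest, and rose (log2 fold change 6.05 ± 0.61, adjusted p = 1.63e-06). It was higher in co-culture than in peptide libraries (3.20 ± 0.29 on the log2 scale, adjusted p = 4.37e-07).

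With TMM scaling, many receptors for survival and migration signals fell. Il7r, which carries the IL-7 survival signal (chr15:9506161-9529876, minus strand), was at 84.5, 111 and 236 CPM in activated libraries against 814 and 830 at rest (-2.74 ± 0.10, adjusted p = 2.41e-10). Ifngr1, the ligand-binding chain of the interferon-gamma receptor, was at 44.6, 89.2 and 113 CPM against 519 and 510 at rest (-2.68 ± 0.09, adjusted p = 1.62e-10). Its partner chain Ifngr2 moved the other way, with 4.90, 25.5 and 47.0 CPM in activated libraries against 0.840 and 0.275 at rest (4.96 ± 0.33, adjusted p = 3.69e-08). Neither chain overlapped between activated and resting libraries. Ifngr2 was higher in co-culture than in peptide libraries, and epithelial genes summed to 4640 to 5377 CPM in co-culture. The part of 4T1 RNA in the Ifngr2 level was not tested. Il27ra, the IL-27 receptor chain, was at 40.1, 63.7 and 161 CPM against 413 and 420 at rest. Of 25 cytokine receptors tested, 7 belonged to the resting program (28%, against 19.3% of all genes) and 2, Ifngr2 and Il6ra, to the shared response. In the list 13 fell (52%, against 31.0% of all genes) and 5 rose (median -0.55). When scaled on T cell identity genes, 9 fell, 11 rose and 2 remained in the resting program. The median was then 0.21, against 0.84 over all genes.

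Among 26 trafficking receptors 12 belonged to the resting program and 2 to the shared response, while 14 fell and 7 rose (median -0.79). When scaled on T cell identity genes, 11 fell, 11 rose and 6 remained in the resting program. The median was then 0.09, against 0.84 over all genes. Ccr2, a receptor for inflammatory chemokines, was at 3.96, 11.1 and 47.2 CPM in activated libraries against 164 and 174 at rest (-3.86 ± 0.12, adjusted p = 1.50e-10). Cxcr3, the receptor for CXCL9 and CXCL10, was at 19.0, 56.7 and 83.3 CPM against 259 and 260 at rest (-2.49 ± 0.13, adjusted p = 3.40e-09). Both of these ligands stood among the ranked genes of the shared response. Itga4 and Itgb7, whose products pair as an integrin for the gut, fell in parallel. Itga4 was at 48.6, 98.8 and 143 CPM against 746 and 693 at rest. Itgb7 was at 109, 195 and 384 CPM against 1378 and 1336 at rest. Cd44, the hyaluronan receptor of antigen-experienced T cells, was an exception at 200, 345 and 784 CPM in activated libraries against 57.0 and 63.7 at rest (2.61 ± 0.14, adjusted p = 6.89e-09), and Ccr8 lay above rest as well.

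Of 23 NK-type receptors, 17 fell, none rose and 9 belonged to the resting program (median -1.52). In 4 of the 23 an activated group was at 0, which pushes the test of the mean over groups towards a fall. Klrd1, the CD94 subunit of NKG2 receptors, was at 44.5, 107 and 137 CPM in activated libraries against 775 and 781 at rest (-3.10 ± 0.10, adjusted p = 1.50e-10). Hcst, the DAP10 adaptor that signals for NKG2D, was at 11.7, 17.7 and 58.8 CPM against 171 and 178 at rest (-3.03 ± 0.12, adjusted p = 6.17e-10). Cd96, a receptor for nectin-like ligands, was at 38.8, 66.4 and 107 CPM against 233 and 279 at rest. The receptors of this family have close relatives in the genome, and how reads shared between copies were counted is not stated in the labels. Under T cell identity scaling 9 of the 23 fell and 2 remained in the resting program.

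Inhibitory and costimulatory receptors split. Of 17 genes in the inhibitory receptor list 4 rose and 7 fell, and the resting program held Ctla4, Tigit and Cd200r4 (17.6%, against 19.3% of all genes). Cd200r4 was counted as a member of the list, and an inhibitory role for it is not established here. Tigit was at 37.0, 49.9 and 134 CPM in activated libraries against 156 and 155 at rest (-1.40 ± 0.11, adjusted p = 1.40e-07). Pdcd1, which encodes PD-1, rose on average (2.18 ± 0.12, adjusted p = 9.52e-09) but overlapped, at 12.8, 49.0 and 375 CPM against 12.2 and 13.3 at rest, because one of the co-culture 24 h libraries lay between the resting pair. Cd28, the main costimulatory receptor, was at 18.6, 35.6 and 155 CPM in activated libraries against 361 and 358 at rest (-3.08 ± 0.10, adjusted p = 1.65e-10). Ctla4 and Cd28, which share ligands, were thus both members of the resting program. Tnfrsf18, a TNF receptor family member also called GITR, was at 4.64, 8.26 and 13.8 CPM against 45.8 and 54.9 at rest. The 2 remained below rest under T cell identity scaling, and Tnfsf11, the ligand RANKL, was the costimulatory gene above rest, at 1.53, 12.9 and 232 CPM against 1.01 and 0.549.

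**Figure D2:**
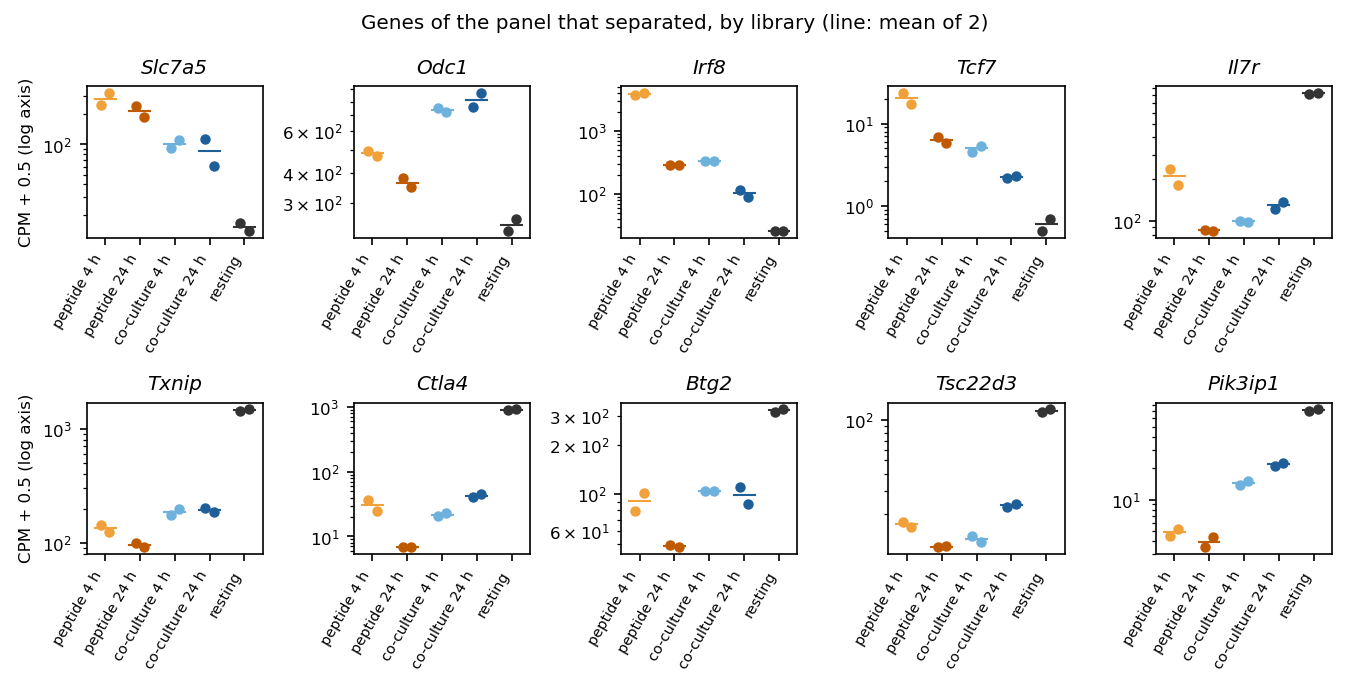
Levels of 10 panel genes that separated, in each of the 10 libraries (vertical axes, CPM with 0.5 added, on log axes), with activated groups left of rest and a line at the mean of each group. In Slc7a5, Odc1, Irf8 and Tcf7 all 8 activated libraries lie above both resting libraries, and in the other 6 genes they lie below.

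The early T cell receptor response was split. The list of 31 held 5 genes of the resting program (16.1%, against 19.3% of all genes), Fos, Fosb, Jund, Cd69 and Bhlhe40, and 2 of the shared response, Fosl1 and Crem; 15 fell and 10 rose (median -0.07, and 0.70 under T cell identity scaling). Fos was at 0.547, 4.91 and 12.96 CPM in activated libraries against 64.8 in both resting libraries (-4.13 ± 0.13, adjusted p = 1.50e-10). Cd69, the early activation antigen that retains T cells in tissue, was at 5.43, 15.4 and 277 CPM against 419 and 454 at rest (-4.28 ± 0.17, adjusted p = 5.42e-10). Bhlhe40, a transcription factor of cytokine production, was at 48.7, 112 and 552 CPM against 684 and 629 at rest. The highest activated library of both Cd69 and Bhlhe40 came from peptide 4 h, and still lay below rest. Fosl1, another AP-1 subunit, was at 2.80, 43.1 and 259 CPM in activated libraries against 0.728 and 0.275 at rest (5.49 ± 0.30, adjusted p = 7.07e-09). Nr4a1 and Egr2, which report receptor signalling, overlapped: Nr4a1 was at 7.46, 22.3 and 187 CPM against 12.4 and 11.5, and Egr2 at 1.01, 11.3 and 198 CPM against 27.9 and 34.3. Both were highest in peptide 4 h.

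Negative feedback genes stood on both sides. Of 31 tested, 10 belonged to the resting program and 6, Socs1, Socs3, Spry2, Spred1, Ubash3b and Sh2b3, to the shared response. The shares were 32.3% and 19.4%, against 19.3% and 16.0% of all genes. The median was -0.23, and 0.53 under T cell identity scaling. Dgka, the diacylglycerol kinase that dampens receptor signalling, was at 26.7, 44.4 and 65.4 CPM in activated libraries against 262 and 264 at rest (-2.62 ± 0.10, adjusted p = 2.97e-10). Dusp2, a phosphatase of MAP kinases, was at 68.4, 166 and 671 CPM against 705 and 745 at rest (-1.99 ± 0.09, adjusted p = 2.10e-09). Nfkbia, the inhibitor of NF-kappaB, was at 128, 230 and 705 CPM against 830 and 811 at rest. Socs1, the suppressor of cytokine signalling, was at 119, 137 and 173 CPM in activated libraries against 34.6 and 44.4 at rest (1.87 ± 0.14, adjusted p = 1.33e-07). Its activated groups lay close together, with a log2 difference of -0.28 ± 0.11 between co-culture and peptide (adjusted p = 0.0391) and of 0.04 ± 0.11 between 24 h and 4 h (adjusted p = 0.797). Socs3 was at 30.4, 68.3 and 112 CPM against 11.2 and 10.6 at rest.

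The transcription factors of memory and effector fate gave 7 genes to the resting program and 5 to the shared response, out of 30 tested (median -0.76, and 0.01 under T cell identity scaling). These were 23.3% and 16.7% of the list, close to the 19.3% and 16.0% of all genes. Bach2, a repressor of effector differentiation, was at 0.849, 3.11 and 10.96 CPM in activated libraries against 24.5 and 19.8 at rest (-2.89 ± 0.22, adjusted p = 1.34e-07). Lef1, a partner of beta-catenin, was at 11.7, 30.1 and 99.5 CPM against 128 and 132 at rest (-2.07 ± 0.16, adjusted p = 1.48e-07). Tcf7, the close relative of Lef1, moved the opposite way: it was at 1.67, 5.07 and 23 CPM in activated libraries against 0 and 0.206 at rest (adjusted p = 1.56e-06). It had 3 counts in the resting pair, and its activated mean was 86.2 times the resting level (95% exact Poisson interval of the resting count 29.5 to 418, for counting error only). Hopx, a homeodomain protein of effector T cells, was at 8.25, 16.3 and 57.4 CPM against 150 and 153 at rest (-3.02 ± 0.10, adjusted p = 1.50e-10). Irf8 (chr8:120736358-120756694, plus strand), an interferon regulatory factor, was at 89.7, 314 and 4066 CPM in activated libraries against 25.8 in both resting libraries (4.12 ± 0.15, adjusted p = 2.89e-10), with peptide 4 h highest. Eomes, a T-box factor of CTLs, was at 0.601, 4.05 and 7.45 CPM in activated libraries and at 0 in both resting libraries. Against the floor of 3 counts over the resting pair its mean was at least 40.9-fold higher. Irf4 and Batf, factors of the effector program, overlapped and are described with the differences between stimuli.

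Effector molecules stood on both sides. Of 24 cytotoxic genes 5 rose and 11 fell (20.8% and 45.8%, against 31.0% each of all genes). The resting program held 7 and the shared response 1, the granzyme B inhibitor Serpinb9. These were 29.2% and 4.17%, against 19.3% and 16.0% of all genes. The median was -0.31, and 0.47 under T cell identity scaling. Gzmk, a trypsin-like granzyme, was at 109, 205 and 285 CPM in activated libraries against 1274 and 1349 at rest (-2.83 ± 0.11, adjusted p = 5.62e-10). Tnfsf10, which encodes the death ligand TRAIL, was at 25.2, 37.5 and 69.5 CPM against 126 and 123 at rest. Both were lower than rest in all 4 groups. Of 24 cytokines and chemokines 13 rose and 6 fell (54.2% and 25%, against 31.0% each of all genes). The shared response held 7 and the resting program 4 (29.2% and 16.7%, against 16.0% and 19.3%), with a median of 1.36. Ltb, a lymphotoxin subunit, was at 143, 475 and 789 CPM in activated libraries against 2551 and 2695 at rest (-2.73 ± 0.09, adjusted p = 1.65e-10). Ccl5, a chemokine that resting memory cells store as message, was at 71.8, 292 and 758 CPM against 1368 and 1365 at rest (-2.39 ± 0.09, adjusted p = 3.73e-10). Spp1, osteopontin, was at 257, 610 and 901 CPM in activated libraries against 38.3 and 42.1 at rest (3.73 ± 0.20, adjusted p = 4.84e-09).

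Autophagy and the brakes on mTORC1 fell by smaller amounts. Of 34 autophagy and lysosome genes 20 fell and 7 rose, 11 lay below rest and 1, Ctsz, above (median -0.52). Ctsd, a lysosomal protease, was at 53.2, 414 and 559 CPM in activated libraries against 1368 and 1475 at rest (-2.40 ± 0.08, adjusted p = 2.19e-10). Ulk2, a kinase that starts autophagy, was at 9.80, 34.6 and 40.7 CPM against 96.2 and 92.2 at rest (-1.74 ± 0.15, adjusted p = 4.04e-07). Gabarapl2, an ATG8 protein of the autophagosome membrane, was at 33.9, 52.3 and 73.9 CPM against 113 and 122 at rest, a decrease that missed the threshold under T cell identity scaling (adjusted p = 0.0593). Under T cell identity scaling 13 of the 34 rose, 6 fell and none remained in the resting program, and the median was 0.25 against 0.84 over all genes. Of 21 genes that restrain mTORC1 and PI3 kinase 11 fell and 4 rose, and 7 lay below rest (median -0.47, and 0.29 under T cell identity scaling). Sesn3, a leucine and stress sensor upstream of mTORC1, was at 7.15, 24.7 and 56.7 CPM against 57.2 and 57.3 at rest (-1.55 ± 0.13, adjusted p = 3.64e-07). In co-culture alone, at 39.7 to 56.7 CPM, its fold change was -0.28 and missed the threshold. Ypel3, a growth-suppressive yippee-like protein, was at 6.39, 25.2 and 52.0 CPM against 255 and 239 at rest (-3.58 ± 0.14, adjusted p = 4.41e-10).

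The shared response was led by Ralgps2, an exchange factor for the small GTPase Ral (chr1:156804166-156939626, minus strand). The ranked genes, with a mean of at least 5 CPM in every activated group, are again a description without a test. Ralgps2 was at 3.94, 7.90 and 9.60 CPM in activated libraries and at 0 in both resting libraries, so its mean was at least 83.9-fold higher. Il24, an IL-10 family cytokine (chr1:130882074-130887454, minus strand), was at 36.8, 82.3 and 159 CPM against 0 and 0.549 at rest, a log2 fold change of 8.26 ± 0.46. Each group of activated libraries held both genes clear of rest. Cxcl9, a chemokine that draws CXCR3-positive cells, was at 10.4, 172 and 538 CPM against 0 and 0.343 at rest. Cxcl10, a second ligand of CXCR3, was at 14.5, 136 and 295 CPM against 0.392 and 0.481 at rest. Both were lowest in peptide 24 h. The log2 difference between 24 h and 4 h was -1.21 ± 0.19 for Cxcl9 (adjusted p = 1.44e-04) and -1.49 ± 0.11 for Cxcl10 (adjusted p = 1.53e-07).

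St6gal1, a sialyltransferase, was at 4.10, 22.7 and 50.2 CPM in activated libraries against 0 and 0.137 at rest. Scd1, the stearoyl-CoA desaturase that makes monounsaturated fatty acids, was at 9.80, 12.7 and 22.6 CPM against 0.336 and 0 at rest. Mreg, melanoregulin, a factor of melanosome transport, was at 7.52, 10.97 and 13.4 CPM against 0.336 and 0.275 at rest. For Scd1 and Mreg neither the difference between stimuli nor that between times passed the threshold. Hyal2, a hyaluronidase, was at 12.5, 29.1 and 48.9 CPM against 0.504 and 0.481 at rest. Cd24a, a glycosylated surface protein of epithelial and B cells, was at 4.37, 233 and 954 CPM against 0.392 and 0.343 at rest, and Cnn3, an actin-binding calponin, at 10.1, 85.4 and 185 CPM against 0.728 and 0.412. Pkig, an inhibitor of protein kinase A, and Oasl1, an interferon-induced protein, completed the 12. Of the 12, 8 were higher in co-culture than in peptide libraries and none was lower, with 35.9% of all tested genes higher and 28.4% lower in that comparison. The largest of these differences was 5.59 ± 0.27 on the log2 scale for Cd24a (adjusted p = 9.11e-10). Epithelial genes summed to 4640 to 5377 CPM in the co-culture libraries, and the part of 4T1 RNA in the co-culture levels was not tested. The epithelial sum was 31.0 to 41.2 CPM in the peptide libraries. B cell genes summed to 297 to 663 CPM in those libraries, against 293 to 319 at rest. Of these 15 genes 14 lay above both resting libraries in all peptide libraries, and the part of B cell RNA in the peptide levels was not tested.

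Genes of ribosome assembly rose nearly without exception. Of 40 ribosome biogenesis genes 38 rose and none fell, and 34 lay above rest in every activated library, 85% against 16.0% of all genes. All 34 remained above rest under both scalings, and the median log2 fold change was 1.92. Nop2, a methyltransferase of the large ribosomal RNA, was at 102, 206 and 912 CPM in activated libraries against 30.02 and 24.5 at rest (3.19 ± 0.17, adjusted p = 4.84e-09). Utp20, a scaffold of the processome of the small subunit, was at 86.7, 133 and 196 CPM against 17.5 and 18.2 at rest (2.93 ± 0.16, adjusted p = 6.60e-09). Nop16 and Rrp9 rose by 2.83 ± 0.14 and 2.91 ± 0.13 on the log2 scale. The response was graded, with medians of 2.77 in peptide 4 h, 1.96 in peptide 24 h, 1.68 in co-culture 4 h and 1.25 in co-culture 24 h. Of the 34 separated members 30 were lower in co-culture than in peptide libraries and none was higher, and 26 were lower at 24 h than at 4 h and none was higher, with 28.4% and 22.2% of all tested genes lower in these comparisons. The messages of the ribosomal proteins themselves did not rise with their assembly factors: of 28 tested 2 rose, Rps2 and Rplp0, and 10 fell (median -0.26). Under T cell identity scaling 11 of the 28 rose and none fell, with a median of 0.53 that lay below the 0.84 of all genes.

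**Figure D3:**
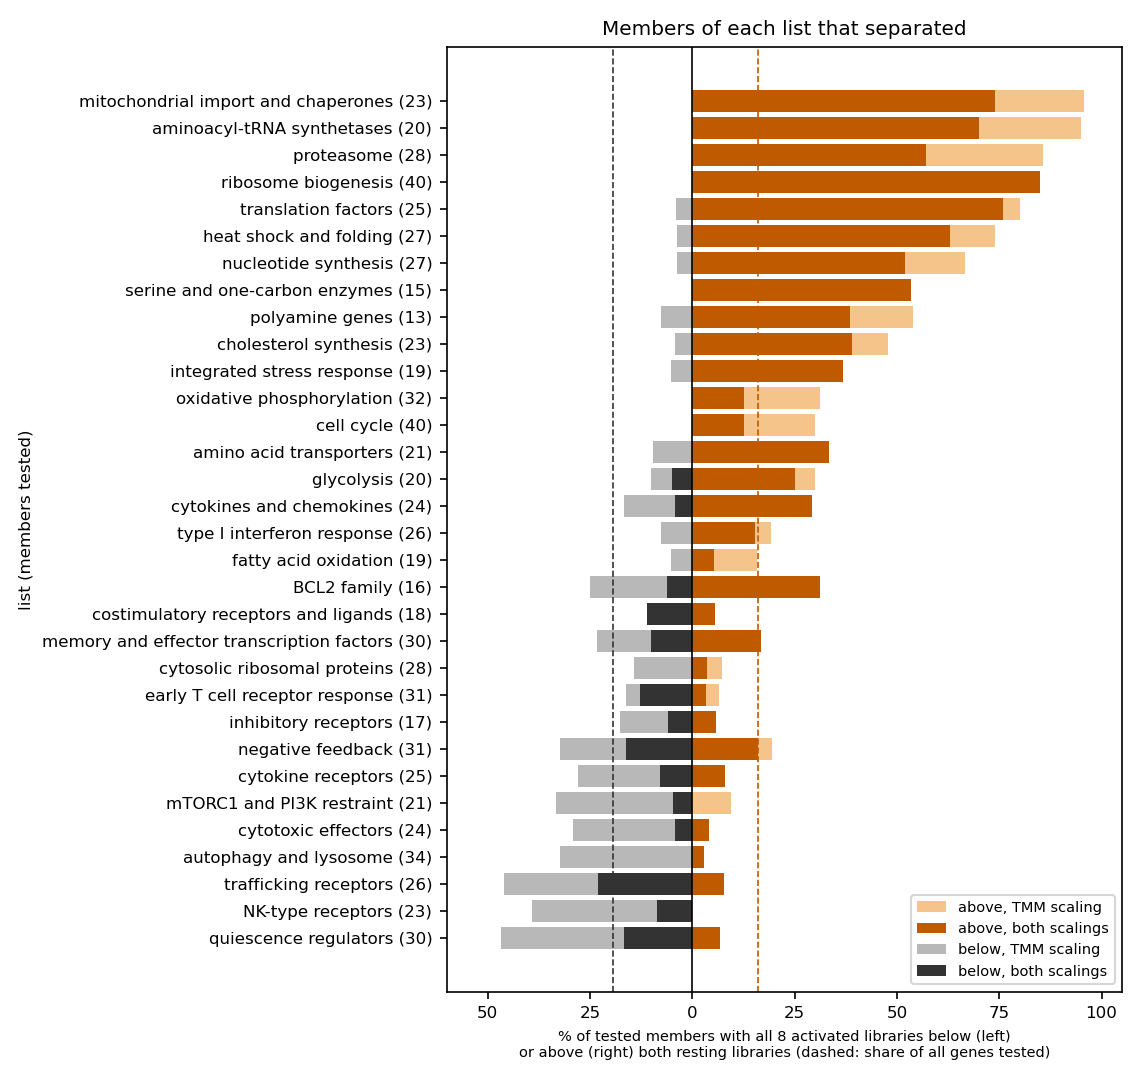
Percentage of each list's tested genes that lay above rest (right) or below rest (left) in all 8 activated libraries, with the share of all 14729 tested genes marked. Ribosome biogenesis, synthetases, mitochondrial import and the proteasome lie mostly above rest, and quiescence and trafficking genes lie mostly below it or overlap.

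Translation factors rose with ribosome biogenesis: of 25 tested 23 rose, 1 fell and 20 lay above rest. Eif4e, the cap-binding protein, was at 151, 179 and 368 CPM in activated libraries against 36.4 and 40.3 at rest (2.42 ± 0.15, adjusted p = 2.20e-08). Eif4a1, the helicase that unwinds leader sequences, was at 1405, 1758 and 3206 CPM against 411 and 451 at rest (2.13 ± 0.13, adjusted p = 2.17e-08). Neither overlapped with rest. Pdcd4, which binds and blocks EIF4A, was the factor that fell, at 9.66, 22.4 and 42.4 CPM against 220 and 207 at rest (-3.32 ± 0.11, adjusted p = 1.65e-10).

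Aminoacyl-tRNA synthetases, which charge tRNAs with amino acids, rose in 19 of 20 cases and none fell, and the same number, 19, lay above rest. Their medians were close to each other in the 4 groups, at 1.62, 1.45, 1.18 and 1.28 for peptide 4 h, peptide 24 h, co-culture 4 h and co-culture 24 h. Tars, for threonine, was at 152, 202 and 360 CPM in activated libraries against 45.9 and 51.3 at rest (2.14 ± 0.12, adjusted p = 7.61e-09). Iars, for isoleucine, was at 97.4, 157 and 271 CPM against 30.9 and 30.1 at rest, and Cars, for cysteine, at 54.9, 62.3 and 110 CPM against 12.99 and 13.3. Amino acid transporters rose in 12 of 21 cases and fell in 3. Slc7a5 (chr8:121881150-121907694, minus strand), the light chain of the LAT1 transporter of large neutral amino acids, was at 61.1, 149 and 325 CPM in activated libraries against 16.0 and 13.3 at rest (3.37 ± 0.25, adjusted p = 1.15e-07). Its partner Slc3a2 rose less (0.93 ± 0.14, adjusted p = 8.06e-05) and overlapped, at 109, 179 and 501 CPM against 117 and 102. Slc7a1, a transporter of arginine and lysine, was at 61.5, 134 and 299 CPM against 38.1 and 31.5 at rest. Slc38a9, the lysosomal arginine sensor of mTORC1, was lower than rest in every activated library, at 8.97, 12.7 and 18.6 CPM against 39.8 and 36.5 (-1.56 ± 0.15, adjusted p = 1.10e-06).

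The enzymes of serine synthesis and one-carbon metabolism gave 8 of 15 genes to the shared response and none to the resting program. Psat1, the aminotransferase of serine synthesis, was at 68.9, 203 and 293 CPM in activated libraries against 12.99 and 12.91 at rest (3.73 ± 0.14, adjusted p = 4.39e-10). Phgdh, which takes the first step of that pathway, was at 230, 265 and 470 CPM against 38.8 and 39.1 at rest (2.91 ± 0.12, adjusted p = 6.17e-10). Shmt1 was at 34.9, 59.5 and 121 CPM against 6.11 and 6.94 at rest. Psph, the last enzyme of serine synthesis, was the member that fell, at 15.4, 39.6 and 55.2 CPM against 48.8 and 58.4 at rest (-0.68 ± 0.13, adjusted p = 5.96e-04). It overlapped with rest, and its fold change was 0.10 under T cell identity scaling.

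Genes of the integrated stress response, the pathway that ATF4 drives when amino acids are short, rose in 14 of 19 cases and fell in 4. These were 73.7% and 21.1%, against 31.0% each of all genes. In this list 7 lay above rest and 1 below (median 1.35). Asns, asparagine synthetase (chr6:7675169-7693254, minus strand), was at 85.3, 120 and 159 CPM in activated libraries against 18.5 and 18.2 at rest (2.67 ± 0.13, adjusted p = 2.24e-09). Trib3, a pseudokinase, was at 1.09, 12.7 and 29.2 CPM against 0.448 and 0.481 at rest. The 4 genes that fell were Ddit3, Ddit4, Ppp1r15a and Stc2, and Ddit3, which encodes the death-linked factor CHOP, was at 3.72, 8.69 and 19.8 CPM against 13.9 and 12.9 at rest (-0.58 ± 0.21, adjusted p = 0.0247). The call of Ddit3 was lost without resting replicate 1 (adjusted p = 0.154), without resting replicate 2 (0.0851) and without co-culture 4 h replicate 1 (0.0606), and its fold change turned to 0.21 under T cell identity scaling, with 0.06 for Ddit4. Of these 4, Stc2 lay below rest and the other 3 overlapped.

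Sites in the promoters of these genes are shown because they hold the letters that ATF4 is known to bind. The 250 bases before the RefSeq start were searched on both strands of GRCm38.p6 for TGATGNAA. It was found in 5 of 18 stress response genes with a promoter (27.8%) and in 1.97% of the promoters at hand for all tested genes. Those promoters covered 73.4% of the tested genes, so the shares are a description and not a comparison. Of the 5, Asns, Chac1 and Herpud1 lay above rest, while Nupr1 and Pck2 overlapped with it. The amino acid transporters Slc7a11 and Slc7a7 also held the site and overlapped with rest. Asns was searched with the rest of its list, and Chac1, Aars and Tars were chosen for their matches after their values were seen. Each is printed 5′ to 3′ on the strand of the gene with the match in capitals, as TGATGNAA or as its reverse complement, and lies at chr6:7693210-7693257 (minus), chr2:119351024-119351081 (plus), chr8:111033705-111033762 (plus) and chr15:11399659-11399698 (minus).
Asns: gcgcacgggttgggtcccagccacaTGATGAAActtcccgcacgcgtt
Chac1: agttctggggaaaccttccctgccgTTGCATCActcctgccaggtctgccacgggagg
Aars: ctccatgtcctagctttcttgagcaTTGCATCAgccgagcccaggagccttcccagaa
Tars: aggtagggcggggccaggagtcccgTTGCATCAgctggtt
Chac1, a glutathione-degrading enzyme, was at 1.01, 5.05 and 14.7 CPM in activated libraries against 0.112 and 0.412 at rest, and Aars, for alanine, at 217, 270 and 338 CPM against 88.2 and 92.4. Both were chosen after the values were seen, and only 13 of the 20 synthetases had a promoter, so no share is given for that list.

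Nucleotide synthesis gave 18 of 27 genes to the shared response and 1, Ctps2, to the resting program, and 21 rose and 1 fell (median 1.46). Ctps, the CTP synthase, was at 87.4, 99.4 and 194 CPM in activated libraries against 9.75 and 10.3 at rest (3.51 ± 0.15, adjusted p = 1.12e-09). Its paralogue Ctps2 was at 7.82, 25.9 and 70.3 CPM against 87.7 and 98.3 at rest (-1.92 ± 0.15, adjusted p = 1.32e-07). The 2 synthases moved in opposite directions, each without overlap. Pfas, of the purine pathway, was at 55.6, 107 and 168 CPM against 11.3 and 11.5 at rest, and Umps, of the pyrimidine pathway, at 79.1, 91.9 and 125 CPM against 15.2 and 15.5. Polyamine genes followed, with 7 of 13 above rest. Srm, spermidine synthase, was at 72.5, 189 and 280 CPM against 14.8 and 13.6 at rest (3.50 ± 0.14, adjusted p = 5.44e-10), and Odc1, the ornithine decarboxylase that starts the pathway, at 350, 609 and 870 CPM against 229 and 258 (1.23 ± 0.11, adjusted p = 5.77e-07). Paox, which breaks polyamines down, lay below rest.

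Mitochondrial import and chaperone genes rose without exception, 23 of 23, and 22 lay above rest (median 1.28). Hspd1, the mitochondrial chaperonin HSP60 (chr1:55077835-55088243, minus strand), was at 714, 1013 and 1473 CPM in activated libraries against 135 and 131 at rest (2.92 ± 0.12, adjusted p = 6.87e-10). Hspa9, the motor of matrix import, was at 434, 505 and 1209 CPM against 134 and 136 at rest. Phb, a scaffold of the inner membrane, was at 71.4, 127 and 226 CPM against 35.6 and 35.8 at rest. None of these overlapped with rest. The subunits of oxidative phosphorylation moved less: 21 of 32 rose and none fell, 10 lay above rest, and the median was 0.47. Atp5b, the catalytic subunit of ATP synthase, was at 1115, 1199 and 1393 CPM against 380 and 398 at rest (1.66 ± 0.11, adjusted p = 2.48e-08). Its log2 difference was -0.02 ± 0.08 between co-culture and peptide and 0.16 ± 0.08 between 24 h and 4 h, neither past the threshold.

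The letters CACGTG, an E-box that Myc and other basic helix-loop-helix factors are known to bind, stood in the promoters of 6 of 22 mitochondrial import genes (27.3%). They stood in 8.13% of the promoters at hand for all tested genes. They also stood in 7 of the 26 promoters at hand for the 34 autophagy and lysosome genes, a list in which 20 genes fell and 7 rose. Windows around 4 of the matches, chosen after their values were seen, are printed as before with the E-box in capitals. They lie at chr1:55088293-55088348 (minus), chr17:56626909-56626964 (minus), chr12:71136703-71136758 (minus) and chr11:95666707-95666755 (plus).
Hspd1: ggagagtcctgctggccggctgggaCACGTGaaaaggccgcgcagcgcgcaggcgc
Lonp1: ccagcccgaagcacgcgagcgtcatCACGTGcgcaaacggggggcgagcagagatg
Timm9: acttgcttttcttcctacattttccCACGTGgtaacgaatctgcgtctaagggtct
Phb: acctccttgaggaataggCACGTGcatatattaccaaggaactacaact
Lonp1, a matrix protease, was at 94.4, 161 and 217 CPM in activated libraries against 90.7 and 80.6 at rest, and Timm9, a chaperone of the intermembrane space, at 26.8, 35.6 and 50.8 CPM against 9.19 and 12.2. The E-box stood in 2 of 36 ribosome biogenesis promoters (5.56%). Myc itself, at 106, 310 and 1444 CPM in activated libraries against 187 and 182 at rest, rose on average (0.92 ± 0.14, adjusted p = 6.03e-05) but overlapped, with its lowest libraries in co-culture 24 h. GTAAACA, a forkhead site, stood in 2 of 27 quiescence regulators (7.41%) and in 2.13% of all. A promoter was at hand for 1848 of the 2355 genes of the shared response and 2087 of the 2843 of the resting program, under 80% of each, so that a comparison of motifs or base composition between the 2 sets was void and is not given. Promoters were at hand for 73.4% of all tested genes, also under 80%. The shares over all genes are therefore a description and not a comparison with the lists.

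Messages of protein quality control rose as well. Of 28 proteasome genes 27 rose and none fell, and 24 lay above rest (median 1.10). Under T cell identity scaling all 28 rose and 16 lay above rest. Psmd1, a scaffold of the regulatory particle, was at 186, 207 and 234 CPM in activated libraries against 73.0 and 77.9 at rest (1.46 ± 0.11, adjusted p = 8.39e-08). Psmd14, its deubiquitinase, was at 98.6, 129 and 218 CPM against 42.5 and 36.3 at rest. The medians were 1.21 in peptide 4 h, 1.18 in peptide 24 h, 0.69 in co-culture 4 h and 1.33 in co-culture 24 h, and 12 of the 24 separated members passed the threshold neither between stimuli nor between times. Of 27 heat shock and folding genes 25 rose and 2 fell, with 20 above rest. Hspa8, the constitutive HSC70, was at 2445, 3163 and 4800 CPM against 806 and 801 at rest (2.00 ± 0.11, adjusted p = 7.73e-09), and Cct3, of the chaperonin that folds actin and tubulin, at 331, 402 and 512 CPM against 85.5 and 86.7 (2.24 ± 0.12, adjusted p = 7.18e-09). Dnajb1, a stress-induced co-chaperone, lay below rest at 48.8, 61.7 and 77.3 CPM against 92.8 and 103 (-0.67 ± 0.10, adjusted p = 9.15e-05), with a fold change of 0.11 under T cell identity scaling.

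Carbon metabolism changed unevenly. Of 20 glycolysis genes 13 rose and 2 fell (65% and 10%, against 31.0% each of all genes). Among them 6 lay above rest and 2 below (30% and 10%, against 16.0% and 19.3%). Ldha, which reduces pyruvate to lactate, was at 1146, 1591 and 1882 CPM in activated libraries against 574 and 621 at rest (1.35 ± 0.10, adjusted p = 1.22e-07), and Pkm, the last kinase of the pathway, at 2141, 2386 and 3062 CPM against 1185 and 1271. Slc2a3, the high-affinity glucose transporter GLUT3, lay below rest at 8.997, 14.7 and 81.7 CPM against 175 and 184 (-3.15 ± 0.12, adjusted p = 4.49e-10), and so did the aldolase Aldoc. Cholesterol synthesis gave 11 of 23 genes to the shared response, and 17 rose and 2 fell. Idi1, an isomerase of isoprenoids, was at 18.3, 30.6 and 58.3 CPM in activated libraries against 5.15 and 4.53 at rest. Insig1, the protein that holds the sterol sensor in the endoplasmic reticulum, fell and lay below rest at 38.9, 90.8 and 198 CPM against 333 and 371 (-2.02 ± 0.09, adjusted p = 1.39e-09).

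Cell cycle genes had the highest median of the program lists, 2.49. Of 40 tested 36 rose and 3 fell. In every activated library 12 lay above rest (30%, against 16.0% of all genes) and none lay below it. The medians were -0.13 in peptide 4 h, 3.44 in peptide 24 h, 2.75 in co-culture 4 h and 3.71 in co-culture 24 h, with peptide 4 h lowest. With co-culture groups alone 33 of the 40 lay above rest and 4 below. Mki67, the Ki-67 proliferation antigen, was at 15.8, 278 and 463 CPM in activated libraries against 80.6 and 75.8 at rest, and overlapped because peptide 4 h lay below rest. Ccna2, cyclin A2, was at 3.43, 131 and 323 CPM against 2.69 and 3.09 at rest (4.48 ± 0.19, adjusted p = 8.04e-10), just above rest in peptide 4 h. Mcm5, of the replicative helicase, was at 38.0, 263 and 458 CPM against 24.9 and 22.7 at rest (2.93 ± 0.12, adjusted p = 7.01e-10). Ccnd1, cyclin D1, was at 43.7, 415 and 1039 CPM against 9.35 and 10.2 at rest, and was higher in co-culture than in peptide libraries by 4.04 ± 0.14 on the log2 scale (adjusted p = 4.22e-11). Co-culture 4 h already had high cell cycle levels and held epithelial genes at 5229 to 5377 CPM, and the part of 4T1 cells in these levels was not tested.

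Of 26 type I interferon response genes 13 rose and 4 fell, and 5 lay above rest (19.2%, against 16.0% of all genes). Oasl2, an OAS-like interferon-induced protein, was at 3.20, 32.7 and 210 CPM in activated libraries against 0 and 0.343 at rest. Mx1, an antiviral GTPase, moved against it at 20.9, 39.2 and 67.7 CPM against 144 and 138 at rest (-1.94 ± 0.10, adjusted p = 4.40e-09), and Samhd1, which hydrolyses dNTPs, lay below rest too. Of 16 genes of the BCL2 family and death receptors 8 rose and 4 fell (50% and 25%, against 31.0% each of all genes). The shared response held 5 and the resting program 4 (31.25% and 25%, against 16.0% and 19.3%). Bcl2l1, the survival protein BCL-XL, was at 47.97, 91.2 and 293 CPM against 12.8 and 9.34 at rest (3.23 ± 0.18, adjusted p = 8.37e-09), and the pro-apoptotic Bid at 23.3, 51.4 and 70.5 CPM against 4.93 and 4.33 (3.32 ± 0.17, adjusted p = 3.15e-09). Mcl1, another survival protein, lay below rest at 196, 269 and 514 CPM against 522 and 553, a difference that was lost under T cell identity scaling (adjusted p = 0.682), and the pro-apoptotic Pmaip1 and Bbc3 did so as well. Survival and death genes were thus found on both sides, though the fallen share was under that of all genes.

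How far members varied among activated groups was tested by contrasts that leave out the resting mean, in the fit of all 10 libraries. Of all 14729 genes 64.3% differed between co-culture and peptide and 47.7% between 24 h and 4 h. Of the 5198 separated genes 2883 differed between stimuli and 2315 between times. In the shared response 703 genes were higher and 801 lower in co-culture, 470 were higher and 597 lower at 24 h, and 513 (21.8%) differed in neither respect, as did 21.8% of all genes. In the resting program 777 genes were higher and 602 lower in co-culture, 740 were higher and 508 lower at 24 h, and 961 (33.8%) differed in neither. The rule chose members by the same activated libraries, so these counts describe the members and are not independent of the rule. The median spread between the highest and lowest of the 4 group means was 0.99 on the log2 scale in both sets and 1.37 over all genes, a narrower range that the rule itself favours. Genes of the shared response that were far higher in co-culture, such as Cd24a, Ccnd1, Fosl1 and Klf3, were measured there beside epithelial sums of 4640 to 5377 CPM, and the part of 4T1 RNA in the differences between stimuli was not tested.

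**Figure D4:**
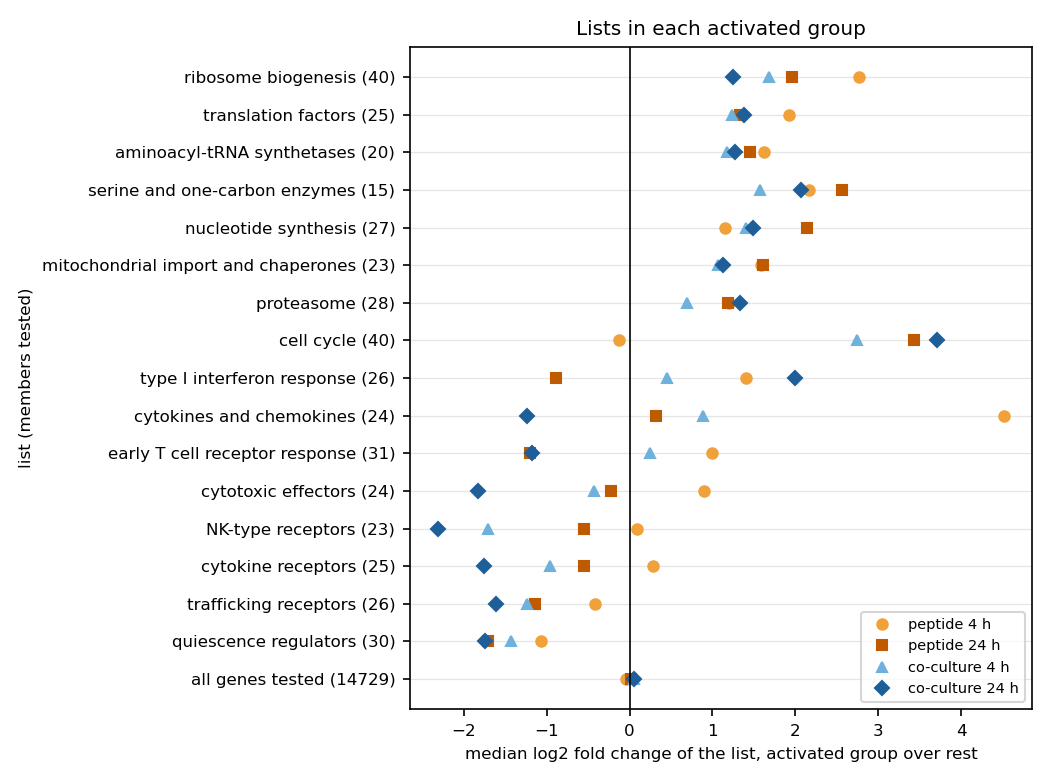
Median log2 fold change against rest of each list in peptide 4 h, peptide 24 h, co-culture 4 h and co-culture 24 h, with 0 marked as the resting level. Ribosome biogenesis lies between 1.25 and 2.77 in all 4 groups, and cell cycle genes lie at -0.13 in peptide 4 h and between 2.75 and 3.71 in the other 3.

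Among the panel genes that overlapped with rest, 9 were lower than rest in co-culture and higher than rest in peptide: S1pr1, Irf4, Batf, Ifng, Tnf, Gzmb, Prf1, Ccnd2 and Cd8a. Their means over the activated groups therefore hide opposite values. Ifng was at 13.1, 608 and 128634 CPM in activated libraries against 189 and 209 at rest, with a log2 fold change over rest of -1.78 in co-culture (adjusted p = 2.28e-07) and 5.77 in peptide (adjusted p = 5.73e-10). Gzmb, granzyme B, was at 73.5, 1836 and 5762 CPM against 275 and 299 at rest, with -1.13 in co-culture (adjusted p = 4.80e-07) and 3.95 in peptide (adjusted p = 4.26e-10). Irf4 was at 14.5, 251 and 977 CPM against 182 and 159 at rest, and its mean over the 4 groups did not differ from rest past the threshold (-0.05 ± 0.16, adjusted p = 0.835). Tnf, at 18.5, 118 and 5735 CPM against 203 and 205, gave -0.05 ± 0.13 (adjusted p = 0.796). Il2ra, the high-affinity IL-2 receptor chain, was at 41.2, 1444 and 4465 CPM against 203 and 207 at rest and was below rest in co-culture 24 h. The T cell identity sum in the same libraries was 1348 to 1435 CPM in co-culture 24 h against 9117 to 9485 at rest, and its part in the lower levels was not tested.

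The 2 sets differed in make-up. In the shared response 94.9% of the genes were annotated as protein coding, against 85.2% in the resting program and 88.5% of all tested genes. Long intergenic and antisense RNAs made up 1.66% of the shared response, 10.1% of the resting program and 6.22% of all. The fold change exceeded 2 for 1664 genes of the shared response and 2200 of the resting program. In every one of the 4 groups the mean was more than 2-fold from rest for 1044 genes of the shared response and 1225 of the resting program. At the edge of the rule, Ankrd17 was just inside the shared response, at 136 CPM in its lowest activated library against 135 and 119 at rest, and Fer was just outside, at 0 in its lowest activated library and in both resting libraries. Neat1 was just inside the resting program, at 560 CPM in its highest activated library against 616 and 560 at rest, and Atg101 was just outside, at 38.0 CPM against 38.0 and 42.5.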

How the data were processed

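The data are gene counts of 10 libraries, deposited by the authors as whole-number counts per gene with gene names, types and positions on mm10. The labels' protocols give stranded poly(A) libraries, and the submitters' processing notes name DESeq2 1.36 and mm10; the aligner, the counting tool and its treatment of strand and shared reads are not stated there. Of 35275 genes 12534 had no count in any library, and no row lacked a gene. Genes with low counts were removed by group (filterByExpr), which left 14729, and libraries were scaled by TMM. A model with a mean for each of the 5 groups was fitted to the counts with edgeR 4.0.16 (quasi-likelihood test, R 4.3.3, limma 3.58.1), and activated minus rest was the mean of the 4 activated groups minus rest. The residual degrees of freedom were 5 and the common biological coefficient of variation 0.159. The stimulus was tested as co-culture minus peptide and the time as 24 h minus 4 h. The script was tested on simulated data with 200 changed genes. Alternatives were other scalings, among them one on 19 T cell identity genes, other filters, DESeq2 1.42.0, a replicate block, either stimulus alone and each library left out.

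A member had all 8 activated libraries above, or below, both resting libraries in TMM-scaled CPM. The members, the 39 gene lists and the panel of 35 genes were chosen with earlier results of these data known, so a list's count is a description and not independent evidence. Genes named are the panel, the 12 highest and 12 lowest separated genes by their weakest group (named gene models only), up to 4 members per direction of each list by p-value, and the genes at the edge of the rule. Others were named after their values were seen: members that complete a count, and Ms4a1, Cd6 and Trat1 for being at 0. Chac1, Herpud1, Nupr1, Pck2, Slc7a7, Slc7a11, Aars, Lonp1 and Timm9 were named for their promoter matches, also after their values were seen. Promoters, 250 bases before each start, came from RefSeq on GRCm38.p6 and were matched by symbol for 10813 of the 14729 genes (73.4%). Of the 6 ranked genes whose promoters were to be shown, none held any of the 7 motifs searched. These were an E-box, ATF4 and forkhead sites, and AP-1, KLF, NF-kB and interferon-stimulated elements; matches of the last 4 are not reported. Replicates of a group differed by more than counting noise, with a mean chi-square per gene of 6.94 at rest and 12.6 to 47.7 in activated groups, and each was kept as a sample. Some genes are not reported here.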

Additional observations from a re-analysis of the deposited data

Results flagged for a closer look

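Among the genes named, 9 were lower than rest in co-culture libraries and higher than rest in peptide libraries, each past the threshold of edgeR's quasi-likelihood test on both sides. The difference itself, co-culture minus peptide on the log2 scale, passed the threshold for each. It was -7.55 ± 0.17 for Ifng, the effector cytokine interferon-gamma (adjusted p = 2.77e-12), and -5.08 ± 0.10 for Gzmb, granzyme B (adjusted p = 2.58e-12). It was -4.82 ± 0.47 for the egress receptor S1pr1, -4.02 ± 0.21 for the transcription factor Batf, -3.97 ± 0.14 for the cytokine Tnf and -3.89 ± 0.16 for the transcription factor Irf4. It was -2.84 ± 0.11 for the cyclin Ccnd2, -2.29 ± 0.13 for Cd8a and -2.28 ± 0.11 for perforin, Prf1. The T cell identity sum was 1348 to 3357 CPM in the co-culture libraries, against 4461 to 15524 CPM in the peptide libraries and 9117 to 9485 CPM at rest, and its part in these differences was not tested.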

How the results depend on the processing

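With scaling on T cell identity genes 7215 genes rose, 1875 fell and 492 lay below rest in every activated library, and the fold change turned to 0.71 for Irf4 and Tnf, 0.35 for Prf1, 0.21 for Ddit3, 0.11 for Dnajb1, 0.10 for Psph, 0.06 for Ddit4 and 0.04 for Atg101. The calls of Batf, Egr2, Gabarapl2, Klf2, Mcl1, Neat1 and Stc2 were lost under it. With peptide groups alone, 3477 separated genes differed between times and the fold change was 1.90 for Irf4, 1.94 for Tnf, 1.06 for Batf, 0.72 for Prf1 and 0.01 for Klf2. With co-culture groups alone, 5660 genes lay above rest and 4984 below, and the fold change was -2.12 for S1pr1, -1.78 for Ifng, -1.13 for Gzmb, -1.03 for Ccnd2, -0.81 for Ccr7, -0.71 for Cd8a, -0.21 for Il2ra, -0.20 for Myc, 0.07 for Ddit3 and 0.23 for Ddit4. With fewer groups the rule compares fewer libraries. Leaving out each library gave 3664 to 4617 genes risen, 3625 to 4844 fallen, 2417 to 2795 above rest, 2986 to 3491 below, 2497 to 3127 that differed between stimuli and 1796 to 2413 between times. Over these, Irf4 ran from -0.15 to 0.04 and turned above 0 without co-culture 4 h replicate 1 (0.00), co-culture 24 h replicate 2 or resting replicate 1 (0.04 each). Tnf ran from -0.13 to 0.00, at 0.00 without co-culture 24 h replicate 2, and S1pr1 from -0.17 without resting replicate 1 to 0.89 without resting replicate 2. The calls of Ccnd2 and Cd8a were lost without resting replicate 1 or 2, that of Crem without resting replicate 1 and those of Prf1 and Ankrd17 without resting replicate 2; the cause was not tested. Libraries of a group share only a number: over 10 pairs of groups their deviations correlated at -0.374 to 0.195, with 3 above 0.1. The replicate block gave 4431 risen, 4393 fallen, 2750 differing between stimuli and 2148 between times, and changed no call of a named gene. DESeq2 gave 5093 risen and 4329 fallen. Depth limits genes near the resting floor of 0.0926 CPM, such as Tcf7 and Klf3.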
